A study of Mus musculus with 30 samples.

Results

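Liver and brain were compared within the same 10 mice, using the 10 liver and 10 brain arrays of a series of 30 arrays that also holds kidney. The mice were males with a viable yellow allele at the agouti locus (Avy) opposite a nonagouti allele (Avy/a), and tissue was taken at weaning and coat scoring, on day 22 of life. All 20 arrays share that genotype, sex and age, and food and water were freely available. Their coats ran from yellow over slightly mottled, mottled and heavily mottled to pseudoagouti, and each of these 5 classes holds mice numbered 1 and 2 in the labels. They came from an inbred colony kept by brother-sister mating with Avy held heterozygous, and the allele had arisen in C3H/HeJ, so no array here is of a wild type. Each array measured total RNA from 1 frozen tissue of 1 mouse on an Affymetrix mouse genome array, and the arrays were paired by the coat class and number that the liver and brain labels share. Gene groups were read from 65 lists of pathways, gene families and cell markers, which held 1780 distinct genes on the array.

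Liver is the main source of plasma proteins and the site where amino acids, fats, bile acids and foreign compounds are chemically changed, work done mostly by hepatocytes. Brain holds neurons, which signal through ion channels, transmitter receptors and vesicle release, and glia, which wrap axons in myelin and take up transmitters. Several enzyme and transporter families have different members in these tissues, so family members were also set side by side.

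Values are signals on the array's linear scale. A level is given as the median of the 10 arrays of a tissue with the lowest and highest in parentheses. A difference is the mean within-mouse difference, liver minus brain, of log2(signal + 16), with its standard error over 10 mice, and a fold is the ratio of signal + 16 that this difference gives. The offset of 16 makes folds of genes near background smaller than ratios of raw signal. A gene was called higher in a tissue at an adjusted p under 0.05 in limma with a log2 difference of at least 1. Genes are described as at like levels where the 95% interval of the difference lay within 0.5 of 0, which held for 1512 genes.

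Of 22519 probe sets tested, 4631 (20.6%) were called higher in liver and 6983 (31%) higher in brain, together 11614 (51.6%). By the probe set that stands for each gene, 2648 of 11862 genes (22.3%) were higher in liver, 3437 (29%) higher in brain and 5777 in neither. In 6573 genes (55.4%) the 10 liver and 10 brain arrays did not overlap. Differences of at least 5 on the log2 scale were found for 343 genes higher in liver and 393 higher in brain. Those of at least 8 were found for 72 genes higher in liver and 8 higher in brain, so the largest differences lay mostly on the liver side while brain had more genes with differences of 2 to 6. The median difference of all probe sets was -0.18, and it became 0.03 when the arrays were given one common distribution (quantile normalisation). Median signals per array were 105.2 to 144.6 in liver and 138.2 to 205.4 in brain. The tissue labels matched their markers: 12 of 12 hepatocyte genes were higher in liver and 10 of 10 neuron genes were higher in brain. The summed signal of those hepatocyte genes was 238716 to 368012 in liver and 1908 to 32417 in brain, a sum that includes Ttr, and that of the neuron genes was 1162 to 1784 in liver and 64769 to 105014 in brain. These are whole tissues, so fewer cells of a type and less RNA per cell cannot be told apart.

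Genes entered the test if the mean signal in the higher tissue reached 218. A gene that is near background in one tissue therefore had to be high in the other to be tested, and counts of list members are descriptions of the members tested, to be read against the shares above.

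Promoter sequence, from RefSeq's GRCm38.p6 annotation, was set beside the calls as a property that the expression values do not contain. Windows from 250 bases before to 50 bases after a gene's start were found for 9587 of the 11862 tested genes, as 12443 windows. The core of the RE1 element (on either strand), which the neuronal gene repressor REST binds, was found in 7 of 3780 windows of genes higher in brain (0.185%), in 0 of 2676 windows of genes higher in liver, in 1 of 5987 windows of genes called in neither direction (0.0167%) and in 12 of all 32851 windows (0.0365%). The brain genes were Fam163b, Hrh3, Lca5, Osbp2, Sptbn4 and Ttc9b. Within the gene lists the core was in 1 of 25 windows of the monoamine, acetylcholine, opioid and cannabinoid list. It was in 0 windows of every other list, so most brain groups described below held no match. Hrh3 encodes a histamine receptor of nerve endings and Sptbn4 a spectrin of the axon's initial segment. Their stretches are shown with the match in capitals, from chr2:180104551-180104615 for Hrh3, chr7:27396257-27396321 for Sptbn4 and chr2:27142540-27142604 for Fam163b, each on the minus strand.
Hrh3: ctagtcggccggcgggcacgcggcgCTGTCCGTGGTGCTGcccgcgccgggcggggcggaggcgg
Sptbn4: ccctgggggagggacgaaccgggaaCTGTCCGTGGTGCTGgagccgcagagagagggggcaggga
Fam163b: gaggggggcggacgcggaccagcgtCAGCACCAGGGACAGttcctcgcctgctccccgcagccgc
In Hrh3 and Sptbn4 the match is on the other strand, so the capitals there read as the reverse complement of those in Fam163b, apart from the unfixed bases. Sptbn4 had a level of 50.8 (25 to 118) in liver and 1762 (1463 to 2252) in brain, and Hrh3 57 (10.8 to 112) and 1482 (972 to 1943). The arrays of the tissues did not overlap for either gene, and the differences were -4.60 ± 0.16 and -4.58 ± 0.24. Rest itself, which encodes the repressor, stood at 663 (470.1 to 906) in liver and 261 (195 to 384) in brain and was called higher in liver, with a difference of 1.24 ± 0.14 and an adjusted p of 5.78e-07.

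Other patterns were searched on both strands unless stated. An HNF4-like match (CAAAGTCCA) was in 1.08% of liver windows and 0.265% of brain windows. It was in 0.317% of windows of genes called in neither direction and in 0.475% of all windows. A forkhead-like match (TGTTTAC) was in 4.11% of liver, 1.75% of brain, 2.94% of uncalled and 3.65% of all windows. Its liver share was thus near that of all windows. A TATA box (TATAAA on the gene's strand in the 50 bases before the start) was in 3.03% of liver windows, 1.43% of brain windows and 1.1% of windows of genes called in neither direction. A GC box (GGGGCGGGG) was in 18.4%, 21.5% and 21.6%, an EGR-like match (GCGGGGGCG) in 4.11%, 6.4% and 5.63%, and a cAMP response element (TGACGTCA) in 1.76%, 2.78% and 3.41%. Over all windows the TATA box was in 2.63%, the GC box in 11.4%, the EGR-like match in 2.91% and the cAMP element in 1.79%. The median number of CG dinucleotides per window was 15 for genes higher in liver and 20 for genes higher in brain. It was 22 for genes called in neither direction and 7 over all windows, which include those of genes not tested. Within the liver side the groups differed in this count, with a median of 2 in the cytochrome P450 list and 3 in complement but 24 in the secretory pathway. A match of letters is a description of the window and was not tested as a binding site, and windows of 1 gene or of neighbouring family members can share sequence.

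Coagulation factors, plasma carriers and complement had the highest medians of the liver pathway lists. Of 24 tested genes of fibrinogen and coagulation, 24 were called higher in liver and 0 in brain, with a median difference of 7.27 against -0.09 over all genes tested. Fgb, the fibrinogen beta chain, stood at 33750.2 (25252 to 39089.7) in liver and 2.9 (1.4 to 6.4) in brain, a difference of 10.76 ± 0.09, 1731-fold (adjusted p of 5.56e-20). Fgg, its gamma chain, followed with 30128 (23674 to 35308) and 9.6 (6.2 to 25.6), and Plg, the precursor of the clot-dissolving enzyme plasmin, with 27035 (21237 to 31343) and 7.2 (4.7 to 38.6). No liver array of these genes came near any brain array. Prothrombin (F2) and antithrombin (Serpinc1), which form and restrain the clot, differed by 8.02 ± 0.18 and 8.12 ± 0.11, so factors and their inhibitors lay on the same side. Factor XI (F11) stood at 2605 (1847 to 3498) in liver and 16.8 (4.7 to 62.3) in brain, and protein C (Proc), an anticoagulant, at 11278 (8627 to 14544) and 29.2 (12.2 to 62.3).

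Complement, the plasma cascade that marks and lyses microbes, had 20 of 23 tested members higher in liver, 0 higher in brain and a median difference of 6.66. C8g, a chain of the membrane attack complex, stood at 15734 (13180.4 to 21892) in liver and 11.5 (4.4 to 69.2) in brain, 508-fold apart. C4bp, which controls the cascade, stood at 16051 (13704 to 18578) and 14.9 (7.4 to 59.8), and C8b at 8558 (4192 to 10840.3) and 5.5 (2.1 to 20.5). For these 3 genes the tissues did not overlap on any array. Members of the list not called in either direction numbered 3. Of the plasma carriers and acute phase proteins, 23 of 23 tested were higher in liver, with a median of 7.22. Ahsg, the fetuin that binds calcium phosphate, stood at 36051 (26594 to 42689) and 4.6 (2.7 to 32.7) (1452-fold), haptoglobin (Hp) at 26338 (19258 to 29785) and 7.6 (4.7 to 18), and Ambp, the bikunin precursor, at 30498 (22513 to 35356) and 25.9 (4.7 to 50.2). Albumin (Alb) differed by 7.39 ± 0.24, with 28534 (20037 to 33989) in liver and 153 (43.1 to 366) in brain.

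Transthyretin (Ttr), a carrier of thyroid hormone and retinol, was the exception among these carriers because brain arrays also held it at high signal. It stood at 29636 (23254 to 35452) in liver and 15123 (373 to 31779) in brain. The tissues overlapped, the difference was 1.71 ± 0.49 with an adjusted p of 0.00447, and the call was lost under quantile normalisation, where the difference was 1.14. In brain Ttr is made by the choroid plexus, and Sostdc1, another choroid plexus gene, is described below. Of 8 tested choroid plexus and ependyma markers, Ttr among them, 3 (37.5%) were higher in liver and 4 (50%) in brain. Over all genes tested the shares were 22.3% and 29%.

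Serpins and apolipoproteins split between the tissues by member. Of 11 tested serpins, 8 were higher in liver and 1 in brain, with a median of 5.08. Serpina1b, an alpha-1 antitrypsin, stood at 30046 (22133 to 35161) in liver and 13.8 (5.0 to 33.6) in brain, 955-fold apart, while Serpini1, the neuroserpin of neurons, stood at 32.2 (10 to 47) and 3961 (3096 to 5022), a difference of -6.42 ± 0.14. The tissues did not overlap for either serpin, in opposite directions. The Serpina1 genes are near-identical copies, so their probe sets can take up each other's RNA. Serpinb6a, an intracellular serpin, was at like levels, with 950.5 (792 to 1197) and 855 (774 to 1009).

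Of 27 tested genes of apolipoproteins and lipoprotein handling, 22 were higher in liver and 4 in brain. Apof differed by 9.80 ± 0.08 (21758 (16606 to 23520.4) in liver, 7.3 (3.6 to 11.9) in brain) and Apoa1, the main protein of high-density lipoprotein, by 8.92 ± 0.17 (34419 (24202 to 40211) and 58.3 (16.8 to 88.9)). Apob, the scaffold of very-low-density particles, differed by 8.14 ± 0.14. On the brain side were Apod, at 187 (33 to 305) in liver and 2610.1 (2057 to 4551) in brain, and Lrp8, the reelin and apolipoprotein E receptor, at 6.1 (2.8 to 31.2) and 579.9 (481 to 775). Apoe, which astrocytes also make, was high in both tissues, at 32256 (26935 to 39984) and 13601 (10078 to 23677), and its difference of 1.13 ± 0.14 was no longer called after quantile normalisation. Pltp, the phospholipid transfer protein, did not separate the tissues, at 3129.6 (2379 to 5197) and 3123 (2639.9 to 3578). 

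The major urinary proteins, pheromone carriers that the liver secretes, are near-identical genes, and 2 list members had a probe set with 1 symbol. Mup3 stood at 16946 (5741 to 25762) in liver and 6.9 (2.8 to 50.3) in brain. Mup5 differed by 1.16 and lost its call in mice numbered 2 alone and with an offset of 64, with differences of 0.81 and 0.95.

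**Figure D1:**
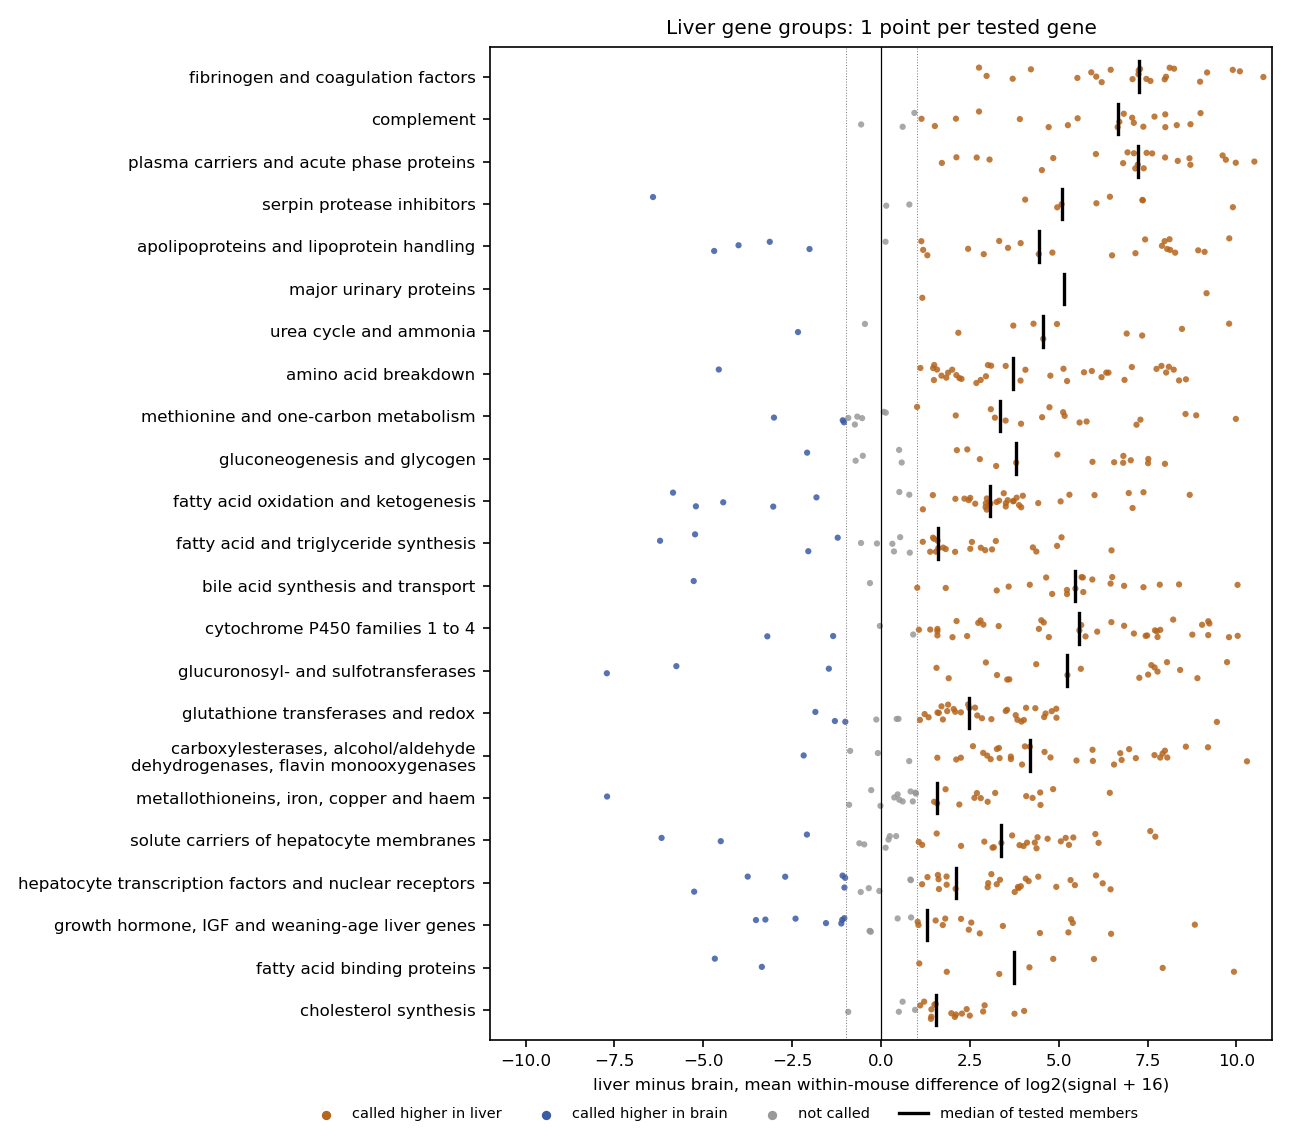
Gene groups of the liver side. Each point is a tested gene, placed by its mean within-mouse difference of log2(signal + 16), liver minus brain, and colored by its call; the bar is the median of the tested members and dotted lines mark a difference of 1. Coagulation and plasma carriers lie wholly to the right with medians of 7.27 and 7.22, while groups such as fatty acid oxidation and apolipoproteins have some members on the brain side.

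Nitrogen metabolism was mostly higher in liver. Of 11 tested genes of the urea cycle and ammonia handling, 9 were higher in liver and 1 in brain, with a median of 4.56. The cycle's enzymes Arg1, Otc, Cps1, Asl and Ass1 differed by 9.79 ± 0.17, 8.47 ± 0.14, 7.35 ± 0.16, 4.95 ± 0.12 and 3.72 ± 0.31. Arg1, which releases urea, stood at 26298 (22104 to 31273) in liver and 13.2 (2.8 to 32.3) in brain. Ass1 had the widest liver spread of these enzymes, at 1227 (326 to 2017). Nags, whose product switches on Cps1, and Slc25a15, the mitochondrial ornithine carrier, were higher in liver too, by 4.29 ± 0.13 and 4.56 ± 0.10. The member on the brain side was Slc25a12, an aspartate and glutamate carrier, at 639 (417 to 728) in liver and 2863 (2456 to 3846) in brain. Another of its probe sets differed by -0.68 and was not called. Slc25a13, the paralog of Slc25a12, showed the reverse, at 4791 (3879 to 6389) and 24.2 (7.7 to 48.1). Glul, which fixes ammonia in glutamine in hepatocytes near the central vein and in astrocytes, was high in both tissues, at 9339 (5666 to 12896) and 11732 (9875 to 16866). It was not called, with a difference of -0.45, but was called higher in brain after quantile normalisation, with -1.16.

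Amino acid breakdown lay almost wholly on the liver side, with 37 of 38 tested genes higher in liver and a median of 3.72. Hgd and Fah, of tyrosine breakdown, differed by 8.58 ± 0.16 and 4.76 ± 0.10, Tat, which starts it, by 8.02 ± 0.19, and Tdo2, which opens tryptophan breakdown, by 8.38 ± 0.12. Tdo2 stood at 23243 (18971 to 26625) in liver and 51 (27.8 to 88.6) in brain. Haao, further down the same route, stood at 8554 (7646 to 11864) and 16.1 (4.3 to 27.1). The exception was Bcat1, the cytosolic transaminase of branched-chain amino acids, at 57.9 (10.8 to 134) in liver and 1661 (1127 to 2617) in brain, without overlap.

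In methionine and one-carbon metabolism 17 of 26 tested genes were higher in liver and 3 in brain. Gnmt, which uses up excess S-adenosylmethionine, stood at 23406 (15650.1 to 28045) in liver and 6.2 (3.9 to 12.6) in brain, Mat1a, which makes it, at 20718 (18126 to 24578) and 28.4 (15.3 to 54.6), and Bhmt, which remethylates homocysteine, at 35004 (27481 to 41165) and 79.2 (42.8 to 124). Their differences were 8.57 to 9.98, without overlap. Serine synthesis lay on the brain side, with Psat1 at 334 (117 to 677) and 2619 (2245 to 2901) and Phgdh at 952 (522 to 1238) and 2017 (1488 to 2922). Psat1 differed by -3.01 ± 0.20. The difference of Phgdh, -1.08 ± 0.12, fell under the threshold of 1 after quantile normalisation, at -0.98.

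In sugar metabolism the gluconeogenesis and glycolysis lists had most of their calls on different sides, and only RNA was measured. Of 19 tested genes of gluconeogenesis and glycogen, 14 were higher in liver and 1 in brain (median 3.80), whereas of 24 tested genes of glycolysis and glucose uptake 4 were higher in liver and 11 in brain (median -0.66). Fbp1, of gluconeogenesis, stood at 30576 (23007 to 34175) in liver and 124 (100.3 to 288) in brain, a difference of 7.52 ± 0.12. G6pc, which releases glucose, stood at 16459 (6391 to 21657) in liver and 87.8 (3.9 to 143) in brain, a difference of 7.51 ± 0.27. Brain was higher in the neuronal enolase Eno2, at 5.4 (2.4 to 46.7) in liver and 9392 (7319.9 to 11198) in brain, in the hexokinase Hk1, at 431 (293 to 588) and 5218 (4204 to 6215), and in the glucose transporter Slc2a1 of the blood-brain barrier, at 460.2 (356 to 1059.5) and 2176 (1629.8 to 2933). Tpi1, a later enzyme of the route, was at like levels, 8969 (6909.6 to 11123) and 7536 (5643 to 10662).

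At several steps of sugar metabolism different genes of 1 family were high in each tissue. The glucose transporters Slc2a2 and Slc2a3 differed by 8.21 ± 0.20 and -5.64 ± 0.10, with Slc2a2 at 10775 (7832 to 13931) in liver and 15.8 (5.0 to 69.1) in brain and Slc2a3 at 131 (89.8 to 154) and 7274 (5985 to 8169.8). Pyruvate kinase was represented by Pklr on the liver side (4.09 ± 0.21) and Pkm on the brain side (-3.96 ± 0.11). Lactate dehydrogenase subunits Ldha and Ldhb differed by 1.80 ± 0.13 and -3.78 ± 0.11, Ldha being high in both tissues, at 20252 (17027 to 24881) in liver and 6169.6 (3255 to 7285) in brain. The glycogen phosphorylases Pygl and Pygb differed by 6.56 ± 0.12 and -2.08 ± 0.13. Phosphofructokinase showed only the brain side of this pattern: Pfkp differed by -4.41 ± 0.13, while Pfkl, the liver form by name, was not called, at 1926 (1085 to 2956) in liver and 2856 (1652 to 4240.1) in brain.

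Of 27 such pairs with both genes on the array, 19 had the first gene called higher in liver and the second higher in brain. Outside sugar metabolism opposite calls were found for Fabp1 and Fabp7, fatty acid binding proteins, at 9.93 ± 0.20 and -3.35 ± 0.17, for Ugt2b1, which conjugates steroids and drugs, and Ugt8a, which makes the galactolipids of myelin, at 7.78 ± 0.17 and -7.71 ± 0.15, and for the cytoskeletal Krt18 and Nefl, at 5.62 ± 0.15 and -7.16 ± 0.13. Both members were higher in liver for Adh1 and Adh5. The cadherin pair divided unevenly, with Cdh1 higher in liver by 5.36 ± 0.19 and Cdh2 at 3379.6 (2304 to 4239) in liver and 3501 (2436 to 3869) in brain. Among pairs with only the brain gene called was Mt1 with Mt3: Mt3, the metallothionein of the nervous system, stood at 21.8 (10.1 to 37.4) in liver and 7681 (5261 to 11559) in brain, while Mt1 overlapped, at 17561 (5473 to 27834) and 8057 (5715 to 11721). The others were Ptbp1 with Ptbp2, Gnai2 with Gnao1 and Pfkl with Pfkp. For 2 pairs, Gys2 with Gys1 and Arg1 with Arg2, the second gene did not reach the signal needed for a test. The pairs were chosen for known tissue forms, so the count is a description. The count rests on 1 probe set per gene, and for Elavl1, paired with Elavl4, 3 of 4 other probe sets were called higher in brain, at -2.98, -2.98 and -1.34, against 2.10 for the one used. In the other direction, another probe set of Ptbp1 was called higher in liver, at 2.19, and so was another of Mt1, at 1.62, and with these both pairs would have opposite calls.

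**Figure D2:**
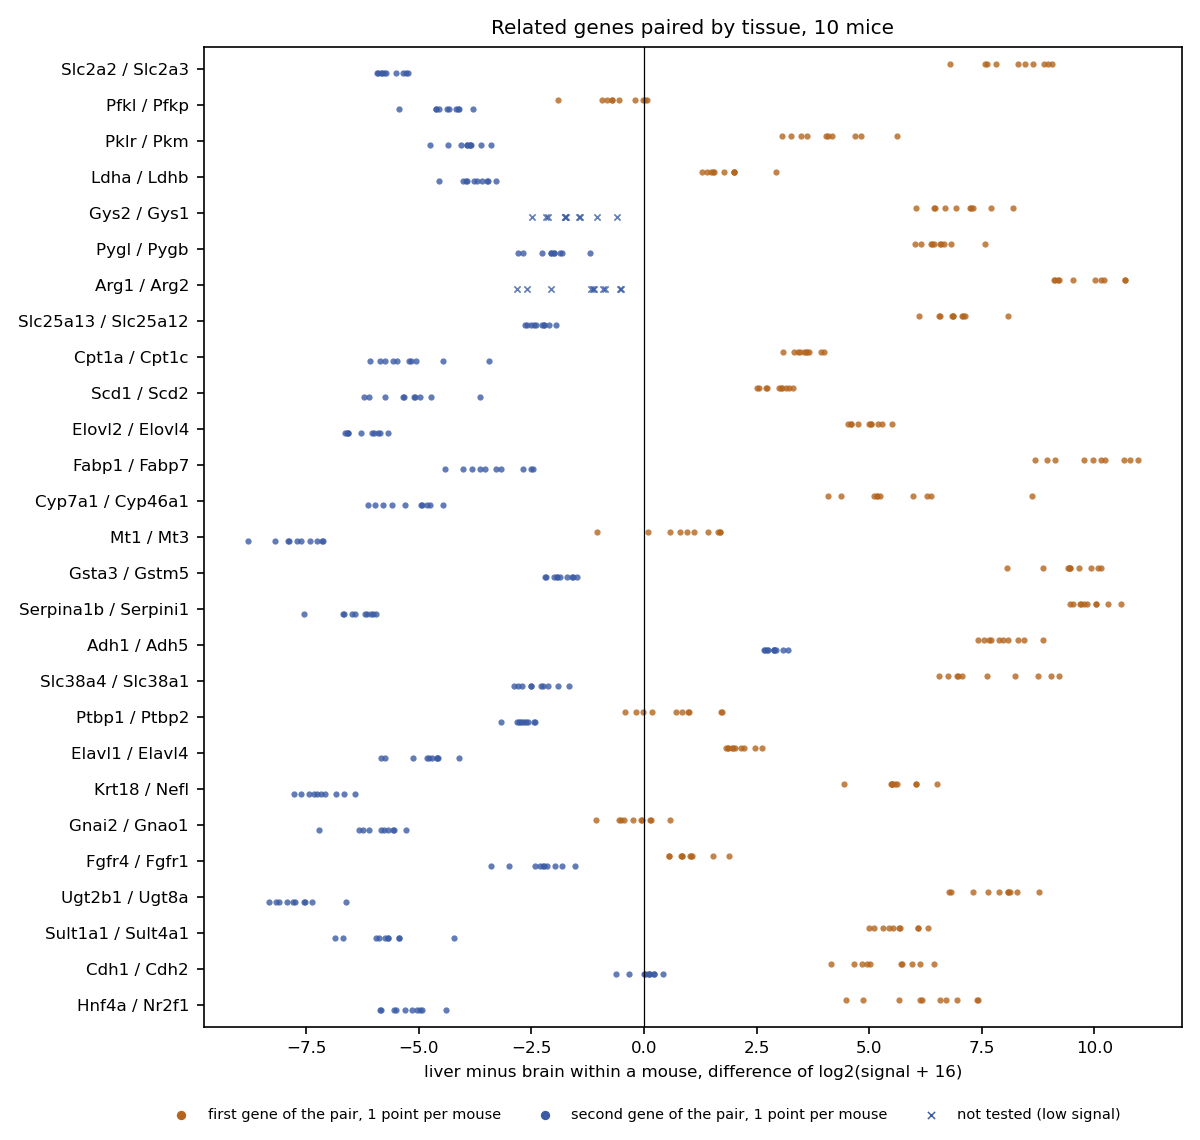
Family members with different tissues. Each point is the liver minus brain difference of log2(signal + 16) in 1 mouse, with the first gene of a pair in orange and the second in blue, and crosses mark genes of low signal that were not tested. In most pairs the 10 mice of the first gene lie right of 0 and those of the second left of 0, as for Slc2a2 and Slc2a3, while Adh5 lies right of 0 and Cdh2, Pfkl and Gnai2 lie around it.

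Fat burning and ketone production were liver features with a few brain members. Of 41 tested genes of fatty acid oxidation and ketogenesis, 34 were higher in liver and 5 in brain, with a median of 3.08. Acaa1b, a peroxisomal thiolase, stood at 25838 (18262 to 32657) in liver and 46.5 (27.1 to 82.3) in brain, and Ehhadh, another peroxisomal enzyme, at 9633 (7387 to 14123) and 70 (36.6 to 95.1). The acyl-CoA synthetases Slc27a5 and Slc27a2 differed by 7.38 ± 0.11 and 7.08 ± 0.16. On the brain side, Oxct1, which lets tissues burn ketone bodies and which hepatocytes lack, stood at 436 (219 to 719) and 9741 (7542 to 11899) with a difference of -4.44 ± 0.12. Bdh1 and Acat1, which act in both making and using ketones, were higher in liver, by 2.65 ± 0.10 and 2.47 ± 0.09. The entry step of mitochondria showed family members on each side, with Cpt1a at 8421 (7136 to 10745) in liver and 735 (533 to 832) in brain and Cpt1c at 21.4 (9.2 to 141) and 1649 (1407 to 2087). Acsl6, a synthetase of neurons, stood at 59 (4.2 to 99.1) and 3426 (2901 to 3999).

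In fatty acid and triglyceride synthesis 21 of 31 tested genes were higher in liver and 4 in brain, with a smaller median of 1.59. Agpat2, of glycerolipid assembly, and Thrsp, a lipogenic protein, differed by 6.48 ± 0.18 and 5.08 ± 0.12. The desaturases and elongases again came in pairs, with Scd1 at 28881 (21923 to 36210.5) in liver and 3621 (3278 to 4359.7) in brain and Scd2 at 403 (247 to 1132) and 16843 (12995 to 29289.7). Elovl2 and Elovl4 differed by 4.95 ± 0.10 and -6.22 ± 0.15, and Elovl4, which makes very long chains, stood at 3.6 (1.3 to 13) in liver and 1607 (1083 to 1881) in brain. Pnpla3, a lipase, was at like levels, 237 (139 to 576) and 259 (184 to 469).

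Cholesterol synthesis, which both tissues carry out, had 17 of 21 tested genes higher in liver and 0 in brain, but with differences of moderate size (median 1.54). Sc5d, Ebp and Tm7sf2, late enzymes of the route, differed by 4.03 ± 0.14, 3.75 ± 0.11 and 2.91 ± 0.14, and brain levels were 759 (655 to 1018) for Sc5d and 805 (689.6 to 1010.0) for Ebp. Among earlier steps Idi1 and Lss differed by 2.28 ± 0.13 and 2.41 ± 0.15, while Hmgcs1 and Sqle differed by 0.96 ± 0.11 and 0.50 ± 0.17, both under the threshold. Removal of cholesterol was divided between tissues. In bile acid synthesis and transport 21 of 23 tested genes were higher in liver and 1 in brain (median 5.47): Cyp7a1, the rate-limiting enzyme of bile acid synthesis, stood at 5353 (3870.3 to 16135) in liver and 112 (24.9 to 212) in brain, and Cyp46a1, which makes the hydroxycholesterol by which brain exports cholesterol, at 101 (45.2 to 159) and 4160.1 (3261 to 5072). Their differences were 5.64 ± 0.32 and -5.27 ± 0.16. The bile salt transporters Slc10a1, Slco1b2 and Abcb11 were higher in liver by 8.38 ± 0.16, 7.84 ± 0.26 and 6.50 ± 0.11, and Akr1c6, a steroid dehydrogenase, by 10.03 ± 0.10.

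Fatty acid binding proteins, which carry lipids inside cells, had 8 of 10 tested members higher in liver and 2 in brain. Fabp1 stood at 44148 (34084 to 50092) in liver and 23.7 (4.1 to 98.4) in brain, and the intestinal and adipose forms by name, Fabp2 and Fabp4, at 8301 (4993 to 11019) and 14.9 (6.0 to 35.2) and at 2503 (1645 to 3720.1) and 25.9 (5.6 to 47.1). Fabp7, of radial glia and astrocytes, and Fabp3 lay on the brain side, at 325 (188 to 549.6) and 4075 (1738 to 5814) and at 85.8 (23.8 to 109) and 2324 (1222 to 2812).

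Enzymes that change foreign compounds formed another large block of liver genes. Of 41 tested cytochromes P450 of families 1 to 4, 37 were higher in liver and 2 in brain, with a median of 5.58. Cyp3a25 stood at 22352 (17779 to 27150.1) in liver and 4.2 (1.5 to 10.6) in brain, a difference of 10.03 ± 0.10, and Cyp2c50 and Cyp2d10 differed by 9.79 ± 0.14 and 9.24 ± 0.11. The tissues did not overlap for these enzymes. Cyp1a2, which oxidises aromatic amines, and Cyp2e1, which oxidises ethanol, differed by 9.03 ± 0.16 and 7.71 ± 0.12. The brain members were Cyp4x1, at 30.1 (6.8 to 96.2) and 424 (270.2 to 526), and Cyp2j9, whose difference of -1.35 ± 0.18 fell to -0.98 after quantile normalisation. Cyp2s1 was at like levels, 260.3 (214 to 309.8) and 269 (173 to 393). Many P450 genes stand in clusters of similar copies, so a probe set named for a Cyp2c or Cyp3a gene may also detect a neighbour.

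Conjugating enzymes followed the same division. Of 21 tested glucuronosyl- and sulfotransferases 18 were higher in liver and 3 in brain, led by Ugt2b5, at 16996 (13940.3 to 22135) in liver and 3.0 (0.6 to 18.7) in brain, Sult2a8 and Ugt2a3, with differences of 9.74 ± 0.13, 8.90 ± 0.17 and 8.41 ± 0.13. Ugt8a and Sult4a1, a brain sulfotransferase, lay on the other side, at 19.9 (3.1 to 56.5) and 7822 (4113 to 11822) and at 48.4 (13.9 to 141) and 3623 (1756 to 4737). Of 38 tested genes of glutathione transfer and redox defence 32 were higher in liver and 3 in brain, with a lower median of 2.47. Gsta3 led with 17807 (13297 to 22852) and 5.5 (3.0 to 60), Mgst1 and Gstt1 differed by 4.94 ± 0.11 and 4.93 ± 0.09, and Gstm5 and Mgst3 were higher in brain, by -1.85 ± 0.09 and -1.30 ± 0.12. Prdx2, a peroxidase of most cells, stood at 5445 (4365 to 6772) and 5906 (5067 to 7202), though another of its probe sets was called higher in brain, at -1.96.

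Of 37 tested carboxylesterases, alcohol and aldehyde dehydrogenases and flavin monooxygenases, 33 were higher in liver and 1 in brain. Ces1c stood at 30571 (23662 to 39859) in liver and 5.7 (4.2 to 29.7) in brain (1257-fold), and Pon1, the paraoxonase of plasma, and Ces2a differed by 9.20 ± 0.22 and 8.58 ± 0.15. Aldh1a2, which makes retinoic acid, was the brain member, at 53.8 (4.1 to 119) and 316 (165 to 427). Maoa, which breaks down monoamines, did not separate the tissues, at 965 (586 to 1126) and 936 (721 to 1191), though another of its probe sets differed by -1.46.

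Metal handling was mixed. Of 27 tested genes of metallothioneins, iron, copper and haem, 15 were higher in liver, 1 in brain and 11 in neither. Hepcidin, the hormone that closes iron export, is encoded by Hamp and Hamp2, whose sequences are close. Hamp stood at 5399 (359.6 to 19402) in liver and 127 (85 to 277) in brain and Hamp2 at 5796 (292 to 19950.4) and 39.4 (6.7 to 74.1), the widest spreads between livers of the genes in the lists. The iron exporter Slc40a1 and Atp7b, a copper pump, were higher in liver by 4.26 ± 0.09 and 2.63 ± 0.17. The transferrin receptor Tfrc was not called, at 3765 (995 to 5119) and 3633 (2359 to 3784), nor was the iron importer Slc11a2, at 384 (326 to 536) and 419 (318 to 461).

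Of 33 tested genes in the list of solute carriers of hepatocyte membranes 24 were higher in liver and 3 in brain. The list also holds other transporters and genes of the blood-brain barrier and of astrocytes, named below. The amino acid transporters Slc38a4 and Slc38a1 were opposite, at 7.72 ± 0.26 and -2.37 ± 0.12. Slc17a2, a phosphate transporter, and Abcg5, which secretes sterols into bile, were higher in liver by 7.58 ± 0.11 and 6.12 ± 0.18. Slco1c1, which carries thyroid hormone across the blood-brain barrier, and Aqp4, the water channel of astrocytes, stood at 9.8 (5.1 to 17.5) and 192 (121 to 297) in liver and at 1959.9 (1056 to 2355) and 4615 (3337 to 6309.8) in brain.

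The list of hepatocyte transcription factors and of nuclear receptors had a lower median than most groups of metabolism. Its nuclear receptors include members higher in brain. Of 37 tested hepatocyte transcription factors and nuclear receptors 26 were higher in liver and 6 in brain, with a median of 2.10. Hnf4a stood at 8781 (7695 to 12814) in liver and 99.4 (35.9 to 342) in brain, and the bile acid receptor Nr1h4 (FXR) at 3342 (2782 to 5399) and 24.2 (3.0 to 68.1). Nr1i3, the receptor that senses foreign compounds, differed by 6.05 ± 0.17, Cebpa by 4.93 ± 0.20, the fatty acid receptor Ppara by 4.42 ± 0.15, and the pioneer factor Foxa2 by 3.76 ± 0.24. On the brain side were the orphan receptors Nr2f1, at 55.9 (15.8 to 105) and 2595 (1757 to 3539.7), and Rorb, at 60.8 (43.6 to 81.9) and 1039 (599 to 1848). With quantile normalisation 28 were higher in liver and 3 in brain.

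The growth hormone axis, active in liver around weaning, had 16 of 28 tested genes higher in liver and 7 in brain. Igf1, the growth factor that liver releases under growth hormone, stood at 17349 (13389 to 21369) in liver and 395 (242 to 533) in brain, and the growth hormone receptor Ghr at 16196 (10969 to 21118) and 397 (263 to 555). Its carriers Igfbp1 and Igfals differed by 8.83 ± 0.26 and 6.47 ± 0.15, Igfbp1 ranging from 3883 to 37258 among livers. The fetal growth factor Igf2 was at the opposite end, at 139.5 (43 to 192) in liver and 1356 (945 to 2678) in brain, and so was the imprinted gene Peg3, at 684 (227 to 894) and 5831 (4239.7 to 8954). Afp, the fetal albumin, was still well above its brain level, at 1357 (341 to 5415) and 18.7 (0.7 to 27.3).

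On the brain side, the machinery of transmitter release was called higher in brain in most members. Of 49 tested genes of synaptic vesicles and release, 42 were higher in brain and 2 in liver, with a median of -4.10. Snap25, of the fusion complex, stood at 3.3 (0.9 to 23.7) in liver and 17392 (13356 to 24086) in brain, a difference of -9.66 ± 0.16 (810-fold, adjusted p of 4.24e-17). The vesicle GTPase Rab3c stood at 7.3 (5.1 to 11.5) and 5317 (4099 to 6989), the vesicle-pinching dynamin Dnm1 at 37.6 (20.3 to 104) and 11381 (8538 to 18045), and the vesicle protein Syp at 124 (102 to 132) and 9821 (5662 to 13406). The tissues did not overlap for any of them. Relatives of this machinery that serve other membranes lay elsewhere. Snap23, a relative of Snap25 in most cells, was higher in liver, at 1002 (631 to 1175) and 284 (247 to 300.2), Sypl, a relative of Syp, differed by 1.05 and fell to 0.95 after quantile normalisation, and Stx4a was at like levels, with a difference of 0.15 ± 0.11.

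Of 16 tested transmitter transporters 13 were higher in brain and 0 in liver. The glutamate transporter Slc1a3 of astrocytes stood at 8.7 (4.3 to 40.7) in liver and 7227 (2122 to 9425) in brain, the vesicular GABA transporter Slc32a1 at 10.5 (3.5 to 59.2) and 2126 (1193 to 2738), and the vesicular glutamate transporter Slc17a7 at 94.5 (65.7 to 193) and 4778 (894 to 7668). Slc1a2, the other main glutamate transporter of astrocytes, also had a signal in liver, at 845 (331 to 1668) against 17126 (12289 to 23707).

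Receptors followed. All of the 21 tested glutamate receptor genes were higher in brain (median -3.64), with Grm5 at 5.1 (1.2 to 32.8) in liver and 2666 (1985 to 3339.5) in brain, Grm7 at 6.6 (4.2 to 14.5) and 1875 (1432 to 2546), and Gria1 at 25.6 (4.1 to 67) and 2986 (1655 to 3972). Of 19 tested genes of GABA and glycine receptors and GABA synthesis 14 were higher in brain and 0 in liver. Glrb, the glycine receptor's beta subunit, differed by -7.19 ± 0.24, the GABA receptor subunits Gabra4 and Gabrb1 by -6.09 ± 0.17 and -5.67 ± 0.21, and the GABA-making enzymes Gad1 and Gad2 by -4.45 ± 0.15 and -5.04 ± 0.28. Gephyrin (Gphn), which anchors these receptors and also makes the molybdenum cofactor, was at like levels, 2687 (2326 to 4376) in liver and 2791 (2150.0 to 3318) in brain. The monoamine, acetylcholine, opioid and cannabinoid list had 12 of 18 tested genes higher in brain and 2 in liver. Cnr1, the cannabinoid receptor, differed by -6.64 ± 0.17, Htr2c by -5.43 ± 0.19 and the dopamine receptor Drd1 by -5.40 ± 0.22. Another probe set of Cnr1 differed by -0.89 and was not called. The liver members were Ddc, which decarboxylates dopa, at 3393 (839 to 6693) and 489.5 (277 to 1776), and the adrenergic receptor Adra1b, at 335 (151 to 789.5) and 118 (19.6 to 182), both with some overlap.

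Neuropeptides and granins, the cargo of dense-core vesicles, had 22 of 26 tested genes higher in brain and 0 in liver, with a median of -4.84. The granins Chgb, Scg3 and Scg2 differed by -7.89 ± 0.19, -7.72 ± 0.12 and -7.34 ± 0.19, and Chgb stood at 15.5 (5.4 to 59.6) in liver and 8474 (6267 to 11377) in brain. Peptides of many brain regions were high in every brain array: Cck stood at 4667 (2434 to 6182), Sst at 4566 (2799 to 5899), Npy at 4112 (1709 to 4949.9) and Penk at 4037 (2061 to 8047), against liver levels of 24.4 (2.9 to 63), 84.1 (14.4 to 194), 159 (53.3 to 212) and 95.8 (80.6 to 166). The only tested probe set of Oxt, the oxytocin gene, read at like levels in both tissues, 1141 (828 to 1406) and 941 (808 to 1978). Whether its signal in liver comes from Oxt RNA was not tested.

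All 23 tested voltage-gated sodium and calcium channel genes were higher in brain, with the lowest median of the brain pathway lists, -4.92. Fgf13, which binds sodium channels, stood at 6.4 (1.8 to 33.6) in liver and 7760.2 (5425 to 10002) in brain, and the sodium channels Scn1a and Scn2a differed by -5.49 ± 0.21 and -5.80 ± 0.17. The calcium channel subunits Cacna2d1 and Cacna2d3 differed by -6.70 ± 0.17 and -6.24 ± 0.18. Of 34 tested potassium channels 29 were higher in brain and 1 in liver. Kcnd2 stood at 13.1 (2.8 to 64.4) and 3572 (2616 to 4564), and Kcnc2, of fast-spiking neurons, and Kcnq3, of the M current, differed by -6.38 ± 0.18 and -6.18 ± 0.16. The liver channel was Kcnk5, a potassium channel of epithelia, at 538 (211 to 863) in liver and 55.8 (14.5 to 119.7) in brain.

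Scaffolds and adhesion molecules of synapses were nearly all on the brain side. Of 39 tested postsynaptic scaffolds and plasticity kinases 36 were higher in brain and 0 in liver (median -4.27), with the calcium sensors Vsnl1 and Hpca at 61.6 (22.7 to 92.1) and 42 (20.5 to 146) in liver and at 12123 (9896 to 14157) and 8300.2 (5256 to 9911) in brain. The kinase Camk2a stood at 22 (5.2 to 88.9) and 4272 (2474 to 8878), and the scaffold Dlg4 differed by -4.42 ± 0.20. Of 40 tested adhesion genes 36 were higher in brain and 2 in liver. Opcml and Negr1, of the IgLON family, and Nfasc, of the axon's initial segment, differed by -7.31 ± 0.14, -7.19 ± 0.12 and -7.01 ± 0.18. The liver members were the cadherins of epithelium and endothelium, Cdh1, at 4292 (3137 to 6931) and 95.2 (61.3 to 162), and Cdh5, at 632 (470.1 to 838) and 137 (58.7 to 189). Of 14 tested protocadherins 12 were higher in brain, led by Pcdh8, Pcdh7 and Pcdh20 at -5.81, -5.28 and -3.93, and 1, Pcdh1, was higher in liver by 2.53 ± 0.14.

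Axon guidance was less one-sided, with 34 of 51 tested genes higher in brain, 6 in liver and a median of -1.60. Sema5a stood at 12.2 (5.4 to 34.1) in liver and 1075 (871 to 1596) in brain, and the ephrin receptors Ephb6 and Epha5 differed by -5.09 ± 0.21 and -4.84 ± 0.19. Members of the same family also lay on the liver side: the receptor Ephb4, which marks venous endothelium, stood at 510.5 (361 to 651) and 24.2 (10.7 to 117), and the ligand Efna1 at 479.5 (267 to 1755) and 65.8 (9.2 to 115). Plxnb1 was at like levels, 1051 (884 to 1270.2) and 1016 (774 to 1358).

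**Figure D3:**
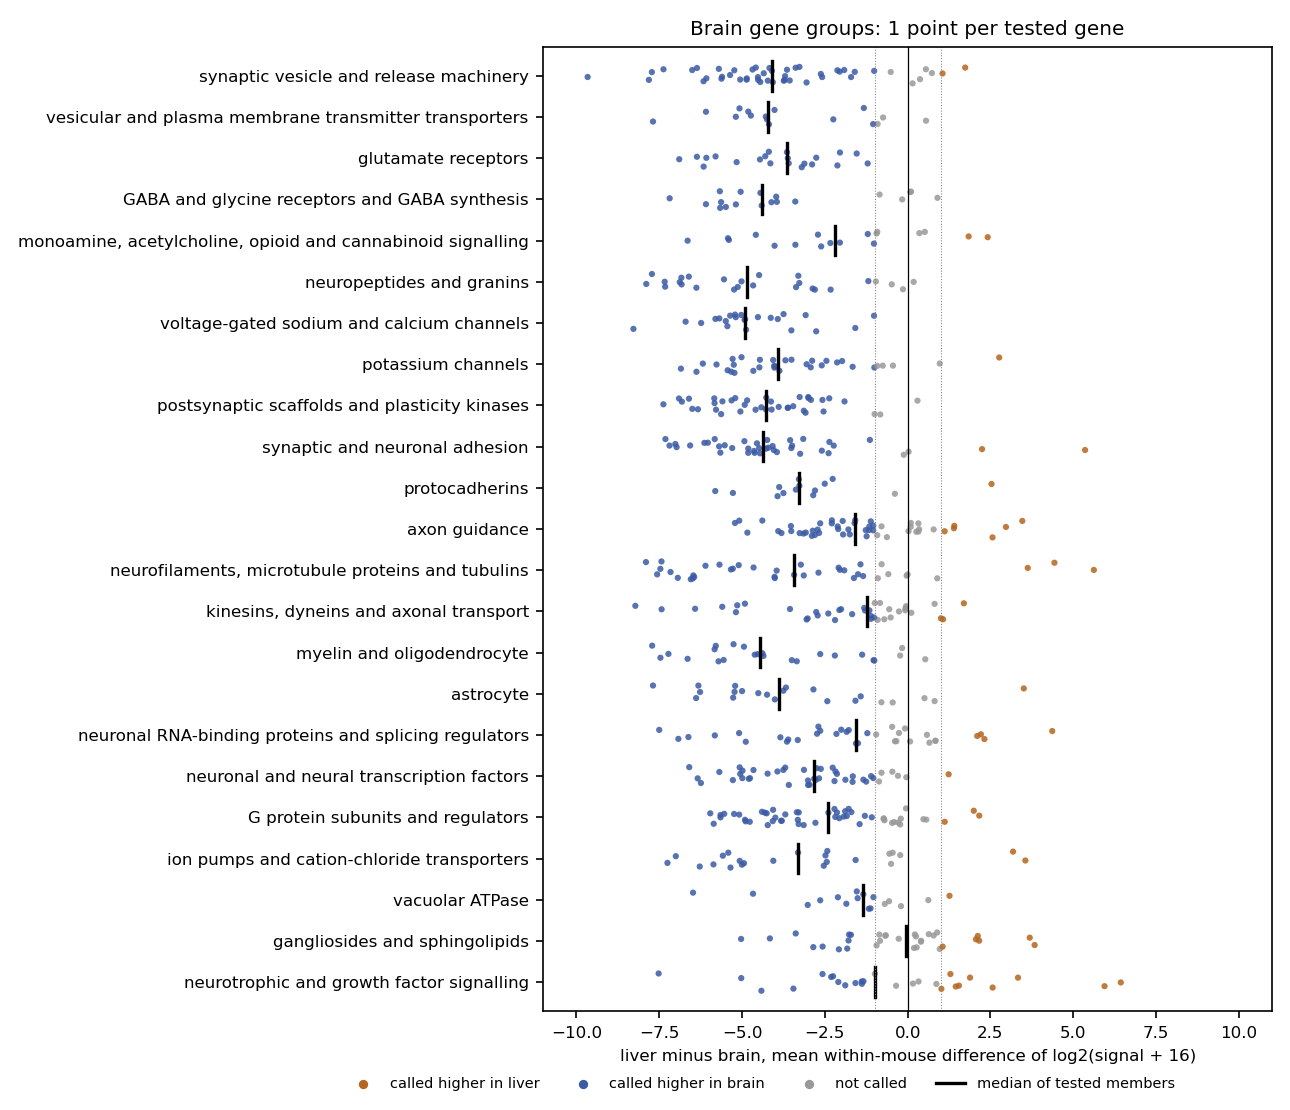
Gene groups of the brain side, drawn as for the liver groups: each point is a tested gene at its liver minus brain difference of log2(signal + 16), and the bar is the median of tested members. Channels, receptors and release machinery lie mostly left of 0, with medians such as -4.92 for sodium and calcium channels, while gangliosides and sphingolipids spread to both sides around a median of -0.04.

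The cytoskeleton divided by filament type. Of 39 tested genes of neurofilaments, microtubule proteins and tubulins 30 were higher in brain and 3 in liver. The neurofilament Nefm stood at 2.8 (1.2 to 6.1) in liver and 4565 (3679 to 6059.9) in brain, the tubulin regulators Stmn3 and Stmn4 differed by -7.56 ± 0.16 and -7.47 ± 0.13, and the microtubule-associated Map2 and Mapt (tau) by -6.55 ± 0.14 and -3.14 ± 0.15. The keratins of simple epithelia, Krt18 and Krt8, lay on the liver side, at 5590.1 (3382 to 8473) and 104 (48.7 to 146) and at 4349 (3780.3 to 5719) and 202 (136 to 231). Tubulins were brain genes by some members only: Tubb3 and Tubb2b differed by -6.44 ± 0.19 and -6.10 ± 0.18, while Tuba4a was high in both tissues, at 15124 (10441 to 22789.5) and 14219.7 (12213 to 21365). Of 38 tested motors and axonal transport genes 23 were higher in brain and 3 in liver, with a median of -1.22. The kinesins Kif5c and Kif5a and the light chain Klc1 differed by -8.22 ± 0.19, -7.43 ± 0.17 and -6.42 ± 0.13. By another probe set Klc1 differed by -0.87 and was not called. Klc4, another light chain, was higher in liver, at 1744 (1283 to 2443) and 560.2 (448 to 668). The dynein light chain Dynlt3 was at like levels, 6271 (5335 to 8296) and 6077 (4251 to 8120.4).

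Glial groups lay on the brain side as well. Of 24 tested myelin and oligodendrocyte genes 21 were higher in brain and 0 in liver, with a median of -4.46. Myelin basic protein (Mbp) stood at 109 (91.4 to 168) in liver and 17129 (12362 to 36070.0) in brain, and Cldn11, of myelin's tight junctions, at 18.1 (1.8 to 34.8) and 5912 (3839 to 7374). Ugt8a, named above with the glucuronosyltransferases, belongs here by function. The lineage factors Olig1 and Olig2 differed by -5.56 ± 0.17 and -5.26 ± 0.20, and Mog, made late in myelination, by -6.64 ± 0.23. Of 22 tested astrocyte genes 17 were higher in brain and 1 in liver. Mlc1 and S100b differed by -6.39 ± 0.14 and -6.32 ± 0.16 and Gfap, the astrocyte filament, by -4.01 ± 0.22, with 1975 (959.6 to 5053) in brain. Aldh1l1, a folate enzyme widely used as an astrocyte marker, was the exception: liver stood at 15932 (13770.5 to 20008) and brain at 1475 (882 to 2094), a difference of 3.51 ± 0.12.

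RNA-binding proteins and splicing regulators of neurons had 20 of 35 tested genes higher in brain and 4 in liver. Celf5, Celf4 and Rbfox1 differed by -7.50 ± 0.19, -6.92 ± 0.14 and -6.62 ± 0.14, and Celf5 stood at 18.4 (6.7 to 84.6) in liver and 6612 (4904 to 8829) in brain. Celf1, of the same family, was at like levels by its strongest probe set, 7159.8 (5969 to 9712) and 7660.0 (5466 to 10393), though 2 other probe sets differed by -1.14 and -1.36. The liver members included Esrp2, a splicing factor of epithelia, at 1362 (855 to 1998) and 57 (13.5 to 171), and A1cf, of apolipoprotein B editing, at 726 (374 to 1330.3) and 124 (91.8 to 313). Ptbp2, the neuronal polypyrimidine tract protein, stood at 429 (338 to 495) and 2892 (2483 to 3197), while Ptbp1, its relative in other cells, was not called by the probe set used here, at 2214 (1241 to 4616) and 1384 (1196 to 1757), though another differed by 2.19.

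Of 43 tested neuronal and neural transcription factors 37 were higher in brain and 1, Rest, in liver, with a median of -2.82. Egr3, an activity-dependent factor, stood at 22.6 (4.5 to 95.3) in liver and 4808 (1714 to 5657) in brain. By another probe set Egr3 was not called, at -0.35. The stem cell factor Sox2 stood at 2.6 (0.8 to 43.8) and 1856 (1349 to 2742). Neurod6, of cortical projection neurons, stood at 2.6 (1.2 to 28.3) and 1833 (681 to 3003). Mef2c and Tbr1 differed by -4.99 ± 0.14 and -4.65 ± 0.25. Nfib, used in many tissues, was at like levels, 1630.4 (1139.6 to 2228) and 1604 (1258 to 2120.2).

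G proteins and their regulators had 39 of 53 tested genes higher in brain and 3 in liver. Gnao1, the most abundant neuronal alpha subunit, stood at 113 (39.4 to 166) in liver and 7652 (5089 to 9253) in brain, Gnaz and the striatal phosphodiesterase Pde10a differed by -5.65 ± 0.22 and -5.86 ± 0.21, and Gnai2 was at like levels, 3874 (2252 to 7499.6) and 4668 (3420.0 to 5654). Gnai3 lay on the liver side, at 4977 (4037 to 5356) and 1164 (974 to 1476). Of 23 tested ion pumps and cation-chloride transporters 17 were higher in brain and 2 in liver. Slc4a10, Slc24a2 and the calcium pump Atp2b2 differed by -7.25 ± 0.13, -7.00 ± 0.18 and -6.28 ± 0.16. The chloride exporters divided by tissue, with Slc12a5 at 199.9 (147 to 233) in liver and 12482 (8997 to 15144) in brain and Slc12a7 higher in liver by 3.55 ± 0.20. Fxyd1, a regulator of the sodium pump, was higher in liver by 3.18 ± 0.18.

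Gangliosides and growth factors had members on each side. Of 32 tested genes of gangliosides and sphingolipids 10 (31.2%) were higher in brain and 6 (18.8%) in liver, with a median of -0.04. These shares are near those over all genes tested, 29% and 22.3%, so the list as a whole did not stand out. St8sia1, which makes the disialo gangliosides of nerve cells, stood at 14.3 (3.8 to 56.2) in liver and 1027 (624 to 1435) in brain, and B3galt2 and St8sia3 differed by -4.16 ± 0.27 and -3.38 ± 0.19. St3gal1 and Sgms2, which add sialic acid to glycoproteins and make sphingomyelin, were higher in liver, by 3.83 ± 0.14 and 3.69 ± 0.19. Of 27 tested genes of neurotrophic and growth factor signalling 13 were higher in brain and 9 in liver. Pleiotrophin (Ptn) and its receptor Ptprz1 stood at 27.2 (4.1 to 53.3) and 99.6 (39.9 to 139.5) in liver. In brain they stood at 7904 (5306 to 10526) and 3455 (2804 to 4175), ligand and receptor on the same side. Ptn was not called by another of its probe sets, at -0.47. Hepatocyte growth factor (Hgf), its receptor Met, its relative Mst1 and its activator Hgfac lay on the liver side, with differences of 1.45 ± 0.21, 3.33 ± 0.19, 6.43 ± 0.19 and 5.94 ± 0.10. Bdnf and its receptor Ntrk2 were higher in brain by -2.09 ± 0.24 and -2.57 ± 0.16, and Egfr higher in liver by 4.47 ± 0.17.

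Machinery that every cell uses showed smaller differences, and its counts depended on the scale of the arrays. The same scale moved some genes described as at like levels, Tuba4a to -0.82, Celf1 to -0.73, Prdx2 to -0.65 and Sec62 to -0.63, none of which was called. Of 31 tested cytosolic ribosomal proteins 12 were called higher in liver and 0 in brain with the deposited values (median 0.97). With quantile normalisation none was called in either direction in limma, the median was 0.27, and 22 of 31 still lay above 0. Rps18, Rpl22 and Rplp0 had the largest differences, 1.49 ± 0.10, 1.37 ± 0.10 and 1.36 ± 0.12, and were at 0.73, 0.75 and 0.68 after quantile normalisation. Rpl22 also has a probe set that differed the other way, by -0.54. Oxidative phosphorylation also changed with the scale: 13 of 61 tested genes (21.3%) were higher in liver and 1 (1.64%) in brain. Over all genes tested the shares were 22.3% and 29%, so the liver share was near that of all genes. After quantile normalisation the calls were 4 and 1, and the median went from 0.75 to 0.14. Those that kept the liver call were Sdhc, Sdhd, Uqcrq and Atp5g1, and Sdhd stood at 10375 (5849 to 14893) in liver and 1879 (1321 to 2760.5) in brain. The brain call was Cox6a2, the muscle form of a cytochrome oxidase subunit by name, at 164 (89.1 to 300.2) and 728 (600.1 to 932).

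The proteasome included genes called on either scale. Of 37 tested 12 were higher in liver and 0 in brain, and 4 after quantile normalisation: Psmb8, Psmb9, Psme1 and Psme4. Psmb8 and Psmb9 are subunits of the immunoproteasome, which cuts peptides for antigen presentation, and Psme1 encodes part of its activator. Psmb8 stood at 957 (499 to 1636) in liver and 78.7 (37.4 to 126) in brain, Psmb9 at 655 (328 to 807) and 41.4 (16.1 to 102), and Psme1 at 5538 (4481 to 7455) and 1032 (868 to 1205), with no overlap. Psmb10, the third inducible subunit, was not called, at 1146 (899 to 1846) and 1017 (787 to 1159), and the constitutive Psmb5 differed by 0.61 ± 0.10. MHC and antigen presentation, which uses those peptides, had 14 of 16 tested genes higher in liver and 0 in brain (median 2.32, and 15 after quantile normalisation). H2-Q10, a class I gene that hepatocytes secrete, stood at 23863 (19807 to 28825) and 39.2 (10 to 69.2), H2-K1 at 17798 (13159.5 to 24311) and 706 (497 to 1089), and B2m and Tap1 differed by 3.05 ± 0.10 and 2.18 ± 0.20. H2 class I genes share sequence, so their probe sets cannot be assigned to 1 gene with certainty.

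The tricarboxylic acid cycle and creatine shuttle list held members on both sides, 12 of 30 tested higher in liver and 5 in brain. Gpt, Idh1 and Suclg2 were higher in liver by 4.39 ± 0.10, 3.44 ± 0.17 and 3.33 ± 0.10. The brain kinases of the creatine shuttle, Ckb at 594 (448 to 738) in liver and 13015 (11111 to 18728) in brain and Ckmt1 at 120.0 (50.2 to 159) and 846 (521 to 1459.8), and the creatine transporter Slc6a8, with a difference of -2.24 ± 0.11, were on the other side. Of the enzymes that make creatine, Gamt was higher in liver by 2.99 ± 0.12 and Gatm higher in brain by -1.20 ± 0.13. Citrate synthase (Cs) was higher in brain by -1.07 ± 0.10.

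**Figure D4:**
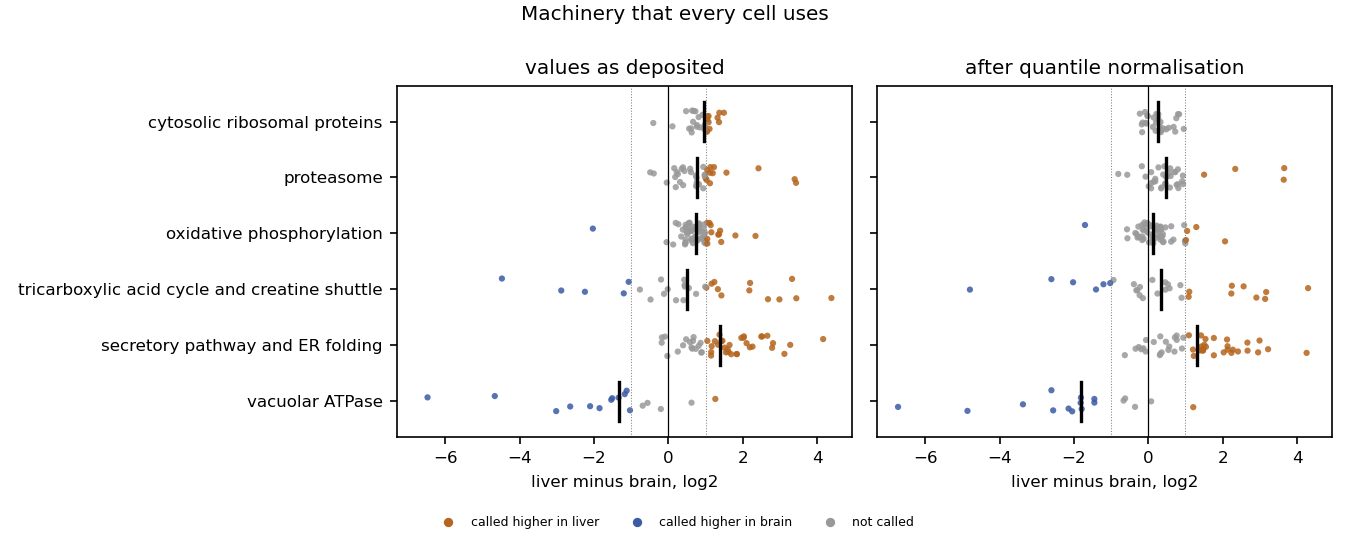
Machinery common to cells, with the deposited values on the left and after quantile normalisation on the right. Each point is a tested gene at its liver minus brain difference on the log2 scale, colored by its call, and bars are medians. Ribosomal proteins move from a median of 0.97 to 0.27 and lose their calls, while the secretory pathway has medians of 1.40 and 1.31 and the median of the vacuolar ATPase lies left of 0 in both panels.

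The secretory pathway and the vacuolar proton pump kept their directions on either scale. Of 48 tested genes of the secretory pathway and folding in the endoplasmic reticulum 31 were higher in liver and 0 in brain, and 27 and 0 after quantile normalisation. The disulfide isomerases Pdia5 and P4hb, the coat protein Sec24a and the glycosylation enzyme Stt3a differed by 4.16 ± 0.12, 2.66 ± 0.09, 3.28 ± 0.10 and 3.12 ± 0.09. Creb3l3, a membrane-bound factor of hepatocytes, was higher in liver by 5.45 ± 0.14. Sec62 was at like levels by its strongest probe set, 4558 (4259 to 5251) and 5171 (4713 to 5745), with -2.06 at another. The vacuolar ATPase, which acidifies lysosomes and loads synaptic vesicles, had 12 of 17 tested genes higher in brain and 1 in liver. Atp6v1g2, its neuronal G subunit, stood at 75.2 (18.1 to 149.7) in liver and 8223 (6049 to 10056) in brain, Atp6v0e2 at 274 (118 to 354) and 7088 (4291 to 10025), and Atp6v1b2 at 1193 (874 to 1436) and 9292 (7448 to 13052). The liver member was Atp6v0e, the relative of Atp6v0e2, at 3616 (2749.7 to 4358) and 1428 (1316 to 1824).

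Peroxisome genes were higher in liver in 19 of 29 tested and in brain in 1. The oxidases Hao2, Uox and Hao1, of hydroxy acids and urate, differed by 7.95 ± 0.32, 7.81 ± 0.10 and 7.34 ± 0.20, and catalase (Cat) by 3.55 ± 0.10. Assembly factors differed by less, Pex5 by 1.09 ± 0.13 and Pex11a by 2.27 ± 0.11, and Pex5l, a brain relative of the import receptor Pex5, lay on the other side at 105 (35.1 to 170.1) in liver and 364 (212 to 652) in brain. Cell cycle genes were higher in liver in 23 of 35 tested and in brain in 5. Rrm2, Cdk1 and Birc5, of DNA synthesis and mitosis, stood at 3389 (1453 to 6320.1), 1016 (545 to 2246) and 1157 (521 to 2301) in liver and at 224 (124 to 353), 98 (18.6 to 169) and 95.1 (37.4 to 139) in brain, and the proliferation marker Mki67 differed by 3.30 ± 0.25. The brain members included Cdk5 and its activators Cdk5r1 and Cdk5r2, which act in postmitotic neurons, with differences of -1.85 ± 0.13, -4.89 ± 0.19 and -5.34 ± 0.16, and the cyclin Ccnd2, at 439 (272 to 622) in liver and 1637 (889 to 2422) in brain. Of 3 tested erythroid markers 2 were higher in liver and 0 in brain. The summed signal of 6 such markers, including those of low signal that were not tested, was 2535 to 12014 in liver and 688 to 1586 in brain, with Alas2 at 4697 (1692 to 11280.5) and 552 (419 to 1044), and their part in the cell cycle difference was not tested.

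Resident cells of other lineages had genes on each side. Among 14 tested macrophage and microglia markers 8 were higher in liver and 3 in brain. Csf1r, the receptor on which both resident macrophage types depend, did not separate the tissues, at 7178 (5463 to 9148) in liver and 6470.1 (5254 to 8957) in brain. Clec4f, Cd5l and Vsig4, of liver Kupffer cells, stood at 3583 (2573 to 5054), 4329.5 (3473 to 6694) and 2327 (1932 to 3028) in liver and at 38.4 (5.8 to 69.6), 42.3 (24.7 to 140.0) and 104 (25.3 to 178) in brain. Those of microglia lay on the other side, with P2ry12 at 142 (90.5 to 174) and 1188 (859 to 1538) and Cx3cr1 at 97.3 (25.5 to 169.9) and 903 (682 to 1081). Tmem119, a further microglial gene, differed by -1.02 ± 0.13 and lost its call after quantile normalisation, at -0.68. Of 13 tested endothelial markers 10 were higher in liver and 1 in brain. Oit3, Clec4g and Lyve1, of liver sinusoids, differed by 5.81 ± 0.18, 5.68 ± 0.14 and 3.88 ± 0.17. Slco1c1 of the blood-brain barrier was higher in brain, and its tight junction gene Cldn5 was at 504 (471 to 708) and 1034 (638 to 1367), a difference of -0.87 ± 0.11 that was under the threshold. Of 10 tested stellate cell and cholangiocyte markers 5 were higher in liver and 1 in brain, and the stellate cell gene Lrat and the collagen Col3a1 were higher in liver by 4.16 ± 0.23 and 4.25 ± 0.15.

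**Figure D5:**
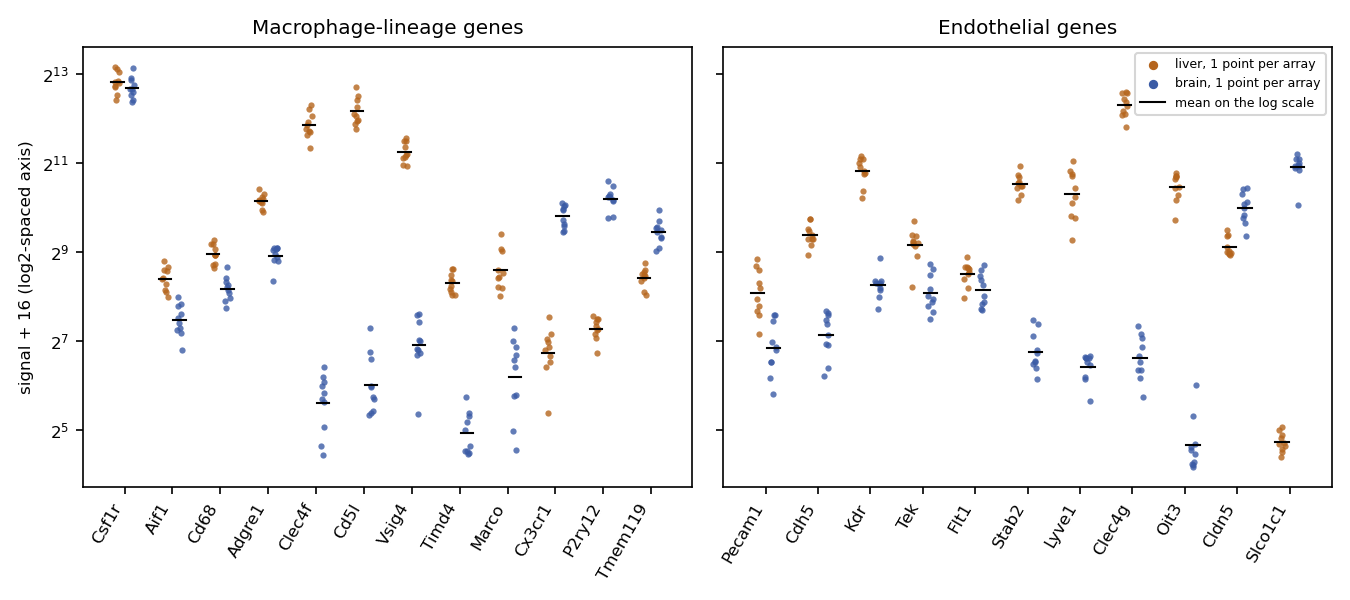
Signals of macrophage-lineage genes (left) and endothelial genes (right), on a log2-spaced axis of signal + 16. Each point is 1 array, orange for liver and blue for brain, and bars are means on the log scale. Csf1r overlaps between the tissues, Clec4f, Cd5l and Vsig4 lie higher in the liver arrays, and Cx3cr1, P2ry12 and Slco1c1 lie higher in the brain arrays.

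The spread between mice within a tissue was small for most of these genes, with a median SD of 0.27 on the log2 scale in liver and 0.29 in brain over list genes with a median signal of at least 200 there. In brain, Pmch, the melanin-concentrating hormone of the hypothalamus, had an SD of 2.67, Ttr 2.01, Avp, the vasopressin gene, 1.61, and Sostdc1, a choroid plexus gene, 1.26. Pmch stood at 2262, 3852, 5502 and 4477 in the heavily mottled, pseudoagouti, slightly mottled and yellow mice numbered 1. In the other mice it lay between 57.8 and 1288. The same 4 brains had the 4 highest signals of Avp, from 801.4 to 1538, against 63.3 to 276.5 in the other 6, and of Calb2, from 2698 to 4742 against 506.9 to 1325. Ttr followed another order, with 31779 in yellow mouse 1, 31547 in slightly mottled mouse 1, 372.7 in mottled mouse 1 and 2175 in pseudoagouti mouse 1. Sostdc1 was also lowest in the last 2 of these, at 55.2 and 48.3, and highest in yellow mouse 2, at 761.1. Neurod1 stood at 7757 in pseudoagouti mouse 1 and at 477.0 to 970.7 in the rest, and growth hormone (Gh), a pituitary gene, at 1857 and 1128 in pseudoagouti and yellow mice numbered 1 and at most 136.9 in the rest. The labels do not say which brain parts were taken, and the part of dissection in these spreads was not tested. The brain calls of Pmch (-2.87 ± 0.65) and Avp (-1.19 ± 0.45) rest on some of the brains, and Avp lost its call after quantile normalisation, at -0.92.

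In liver genes with a wide spread included Hamp and Hamp2, with SDs of 2.04 and 1.83, Alas1, the first enzyme of haem synthesis, with 1.62, St3gal6, a sialyltransferase, with 1.43, Rgs16, a G protein regulator, with 1.41, Lpin1, a phosphatidate phosphatase, with 1.40, Elovl3, an elongase, with 1.37, and Orm1, an acute phase protein, with 1.32. Hamp stood at 359.6 in yellow mouse 2 and 900.5 in slightly mottled mouse 2, and at 19402 and 19125 in the heavily mottled mice. Alas1 stood at 908.8 in heavily mottled mouse 1 and 1939 in mottled mouse 1, and at 5251 to 25340.4 in the others. The same 2 livers had the lowest Lpin1, at 945.2 and 1408, and the highest Orm1, at 15972 and 6528, so Orm1 was high where Alas1 and Lpin1 were low. Elovl3 stood at 4251 in heavily mottled mouse 1 and at most 434.8 in the other 9. For Rgs16, which ranged from 446.5 to 10080.7 in liver, the tissues overlapped and the difference was 2.16 ± 0.42 (adjusted p of 1.63e-04).

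Among the genes outside the lists with the largest differences, the liver side held the plasma protease inhibitors Mug1 and Pzp, at 21364 (18846 to 26006) and 31225 (24909 to 37316) in liver and 15.3 (1.5 to 26.7) and 21 (4.8 to 71) in brain, the retinol dehydrogenase Rdh7, the calcium-binding regucalcin Rgn and the deiodinase Dio1, with differences of 9.44 ± 0.16, 9.02 ± 0.15 and 8.44 ± 0.17. Asgr1, the asialoglycoprotein receptor, differed by 8.28 ± 0.17, and the carbonic anhydrase Car3 stood at 27913 (20414 to 39362) and 99.7 (33.9 to 168). The brain side held the calcium sensor Hpcal4, at 5.8 (3.4 to 19.6) in liver and 9832 (6743 to 14649) in brain, the calmodulin regulator Pcp4, the Golgi GTPase Rab6b and the imprinted Nap1l5, with differences of -8.80 ± 0.14, -8.46 ± 0.20, -8.09 ± 0.16 and -8.09 ± 0.17. Cadps, which primes dense-core vesicles, Gpm6b, a membrane proteolipid, and Anks1b, a postsynaptic protein, differed by -7.43 ± 0.16, -7.10 ± 0.13 and -7.09 ± 0.21.

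The tissue difference itself was compared between mice by the number in the label and by coat class. No probe set passed an adjusted p of 0.05 in limma for a slope of the difference per coat step from yellow to pseudoagouti (0% of 22519), with 612 at an unadjusted p under 0.05. In simulated data with the spread of these arrays, a slope of 0.5 per step was found in 62% of the changed probe sets and a slope of 1 in 96.5%. Simulated probe sets varied independently, so variation between mice that many probe sets share is left out of these rates. Between the 5 mice numbered 1 and the 5 numbered 2 the tissue difference of 221 probe sets (0.981%) differed, with 4044 at an unadjusted p under 0.05. That count of 221 changed when single mice were left out. It was 4 without yellow mouse 2 or without pseudoagouti mouse 2, 7 without slightly mottled mouse 1 and 18 without heavily mottled mouse 2. It was 25 without slightly mottled mouse 2 and 32 without yellow mouse 1. Without heavily mottled mouse 1 it was 78 and without pseudoagouti mouse 1 it was 82. Without mottled mouse 1 and mottled mouse 2 it was 199 and 164. Leaving out a mouse also leaves fewer mice to test, and the cause of these changes was not tested. The labels do not say what the number marks. The brains with the 4 highest signals of Pmch, Avp and Calb2, described above, were all of mice numbered 1, and the part of brain content in the differences by number was not tested. Atox1, a copper chaperone, had the smallest p: liver minus brain was 2.29 to 2.53 in the mice numbered 1 and 0.63 to 1.20 in those numbered 2, a change of -1.57 ± 0.15 (adjusted p of 0.00071). Plk2, an activity-regulated kinase, differed by -1.96 ± 0.53 (SD, n = 5) in mice numbered 1 and -3.47 ± 0.25 (SD, n = 5) in those numbered 2, and Fam107a, a brain actin regulator, by -7.16 ± 0.88 (SD, n = 5) and -4.79 ± 0.86 (SD, n = 5). Among genes of the lists the bile acid receptor Nr1h4 was one whose tissue difference was larger in the mice numbered 2, by 1.38.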

How the data were processed

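The values were intensity signals per probe set that the authors deposited, made with MAS5 per the submitters' processing notes; its version is not given in the sources used here. Each array had a 2% trimmed mean of 500.0, and no detection calls were used. Of 45101 probe sets, 34945 had 1 gene symbol, 932 several and 9160 none. Signals were transformed as log2(signal + 16). Probe sets were tested where the higher tissue mean reached 218, the median of that quantity. The within-mouse difference was fitted with limma 3.58.1 in R 4.3.3 (mean-variance trend, mouse as a fixed block), and p-values were adjusted over 22519 probe sets by Benjamini and Hochberg. A gene is represented by its probe set of highest mean. Nothing in the labels says more of replication than 2 mice per coat class.

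The pairing comes from the titles, which give both tissues of a mouse the same class and number. Deviations of the 2 tissues of a mouse correlated at -0.095 to 0.24, and a mouse's own array was the best match in 5 of 10 mice. The gene lists, pairs and tests were chosen with earlier results of these data known, so counts over them are descriptions. Genes were named by rule: up to 3 with the largest difference in a list's more common direction, up to 2 called the other way, up to 1 at like levels, members of pairs, up to 15 outside the lists on each side, and the 5 smallest p-values per direction for number and coat. Other genes named, among them all of those described for their spread between mice and the genes with promoter matches, were chosen for their known role or after their values were seen. In simulated data of 22519 probe sets, tissue differences of 1.5 and 2 were found in 97.5% and 100% of changed probe sets, number effects of 1 and 2 in 22.5% and 86%, and coat slopes of 0.5 and 1 in 62% and 96.5%. Simulated probe sets were drawn independently of one another. Alternatives covered the offset, the filter, quantile normalisation, shared-sequence probe sets, the block, the fold threshold, the mouse numbers and leaving out each mouse.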

Additional observations from a re-analysis of the deposited data

Results flagged for a closer look

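For 31 of 335 genes examined, 1 mouse stood apart from the other 9 in its liver minus brain difference on the log2 scale, by Dixon's test of the gap at the end of the range. Chance gives this in about 1 in 20 groups. The range of the other 9 mice is given in parentheses. In pseudoagouti mouse 1 the difference was -5.44 for Pfkp (-4.62 to -3.79), -8.18 for Atp6v1g2 (-6.96 to -5.68), 9.07 for Mettl7b (7.95 to 8.46), 6.62 for Asgr1 (8.08 to 8.82), 7.57 for Pygl (6.02 to 6.83), 8.08 for Slc25a13 (6.11 to 7.13), 8.63 for Cyp7a1 (4.09 to 6.37) and -3.18 for Ptbp2 (-2.81 to -2.43). In heavily mottled mouse 1 the difference was -5.12 for Peg3 (-3.60 to -2.58), 2.07 for Ephb4 (3.08 to 4.10), 4.89 for Hao2 (7.14 to 9.16) and 2.93 for Ldha (1.29 to 2.01). In heavily mottled mouse 2 the difference was -3.76 for Lrp8 (-5.12 to -4.44), -3.84 for Htr2c (-6.28 to -5.10), 2.06 for Cela1 (3.16 to 4.26), 9.47 for Car3 (7.36 to 8.44) and -1.91 for Pfkl (-0.93 to 0.07).

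In yellow mouse 1 the difference was -5.78 for Grm5 (-7.56 to -6.83) and 5.84 for Vsig4 (3.73 to 4.69). In yellow mouse 2 the difference was -7.55 for Serpini1 (-6.68 to -5.96), 4.44 for Krt18 (5.47 to 6.50) and -8.91 for Kif5a (-7.78 to -6.73). In slightly mottled mouse 1 the difference was 8.83 for Ugt2b5 (9.53 to 10.28) and 7.41 for Ces2a (8.32 to 9.26). In slightly mottled mouse 2 the difference was -5.33 for Cacna2d1 (-7.35 to -6.33). In mottled mouse 1 the difference was 6.14 for Efna1 (1.89 to 3.38), 0.88 for Cdk4 (-0.17 to 0.24), -4.69 for Cx3cr1 (-3.26 to -2.41) and 6.42 for Dpys (7.46 to 8.34). In mottled mouse 2 the difference was 1.19 for Pnpla3 (-0.95 to 0.18) and -5.60 for Kcnd2 (-7.32 to -6.42).

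Efna1 in mottled mouse 1, Cyp7a1 in pseudoagouti mouse 1 and Hao2 in heavily mottled mouse 1 stood farthest from the nearest of the other mice. The Cyp7a1 signal of that pseudoagouti liver, 16135, was the highest of the 10.

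The tissue difference differed between mice numbered 1 and 2 in 11 named genes. Of these, 10 were named for having the smallest p in this same comparison, so their number is not a result. Over all probe sets tested the share was 0.981%. Liver minus brain was larger in the mice numbered 2 for Fam107a by 2.36, Cdc42ep4 by 1.55 and Nr1h4 by 1.38. For Fgf1, Ptpa and Pura it was larger by 1.31, 0.92 and 0.79. The change was -1.57 for Atox1, -1.51 for Plk2, -1.27 for Tysnd1, -1.24 for Arpc4 and -1.20 for Yipf1. Their adjusted p-values in limma ran from 0.00071 for Atox1 to 0.0325 for Fam107a among the 10 with the smallest p, and of those 10 only Atox1 and Yipf1 kept their calls without each mouse in turn.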

How the results depend on the processing

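Of 7880 values of 335 named genes under the alternatives, 7758 kept their direction and side of the thresholds, and 286 genes did so in every alternative run for them. Reversed values came only from other probe sets of the same gene: -2.98, -1.34 and -2.98 for Elavl1 and -0.54 for Rpl22, and the cause was not tested. The count of 11614 called probe sets became 18941 without the threshold on the difference (8408 higher in liver and 10533 in brain). Without shared-sequence probe sets, which removes probe sets from the test, 3057 were higher in liver. Quantile normalisation shifted the median difference by 0.20, left 10515 of the called probe sets called and moved the share of calls on the liver side from 39.9% to 46.8%. Without the replicate block, with a random block for the mouse (correlation 0.09) and with all 30 arrays the count was 11614 each time. In this balanced design these settings leave every mean difference unchanged. The count could change only through the adjusted p-values and is a weak check of the block. Leaving out each mouse gave 11572 to 11704. The count of probe sets whose tissue difference varied with the mouse number, 221, was 347 with an offset of 64, 86 without the filter, 48 after quantile normalisation, 124 with coat step as a covariate and 4 to 199 without single mice. For these settings the cause was not tested. The coat slope had 0 calls in limma under the alternatives run. The number of opposite pairs, 19, ran from 13 without shared-sequence probe sets to 21. Signals near background set a bound on folds, since an offset of 16 hides differences under it.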
